A study of Mus musculus with 12 samples.

Results

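Cholesterol efflux and lipid handling were followed through 9 genes in tumor-associated neutrophils (TANs) and bone marrow neutrophils of the mouse. These were Abca1, Abcg1, Apoe, Lpl, Nr1h3, Mylip, Plin2, Cd36 and Fabp5, taken by symbol from the 55335 genes counted in each library. All 9 were found. They had been chosen by their CPM in the 3 groups of these libraries, which was already known, so their levels and fold changes are given as a description and were not tested.

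Cells carry cholesterol and fatty acids in through receptors and lipases, store the surplus as esters and triglycerides in lipid droplets, and send sterol out to lipoproteins through ABC transporters. The nuclear receptor LXR is switched on by oxidized sterols and drives the efflux genes, whereas PPAR receptors respond to fatty acids and SREBP-2 drives sterol synthesis when membrane sterol is low. In macrophages this circuit is known for its part in foam cell formation, and lipid-laden neutrophils have been described in tumors.

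Neutrophils were sorted as CD45+ CD11b+ Ly6G+ F4/80- cells after a CD11b enrichment, and their total RNA was sequenced. The PyMT TANs came from mammary tumors of FVB-PyMT mice, which carry the polyoma middle T oncogene. The PyMT-Cxcr2-/- TANs came from mammary tumors of FVB-PyMT-Cxcr2-/- mice, which in addition lack the chemokine receptor Cxcr2. The wild-type (WT) BM neutrophils came from the bone marrow of FVB WT mice without the transgene. All mice were 10 weeks old and housed under SOPF conditions, and each group had 4 libraries. The Cxcr2 loss was in the whole animal, and the promoter of the PyMT transgene was not given in the sources used here. Tumor, tissue and the PyMT transgene differed together between TANs and WT BM neutrophils, and for PyMT-Cxcr2-/- TANs the Cxcr2 genotype did as well. These cannot be told apart, and no Cxcr2-/- bone marrow was analysed here.

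Library depth ranged from 25032704 to 51351569 reads on genes. Levels are CPM, the counts scaled to the library size after TMM normalisation, and 3 counts correspond to 0.0584 to 0.12 CPM. The sum of 7 neutrophil markers was lower in TANs, with 8937 to 14264 CPM for PyMT and 16784 to 27503 CPM for PyMT-Cxcr2-/- TANs, against 70531 to 92667 CPM in WT BM neutrophils. Csf3r, the G-CSF receptor, ranged from 2938 to 5449 CPM in TANs and from 3790 to 4319 CPM in WT BM neutrophils, so this marker was present in every library. Ly6g, which encodes the antigen of the sort, was at 20 to 48.4 CPM, 106 to 183 CPM and 477 to 655 CPM in the 3 groups in the same order. The sum of 10 macrophage markers was 1357 to 2693 CPM in PyMT TANs, 1373 to 2290 CPM in PyMT-Cxcr2-/- TANs and 244 to 336 CPM in WT BM neutrophils, although F4/80+ cells were left out of the sort. The sum of 9 mammary epithelium markers was 39.4 to 426 CPM in PyMT TANs, 70.7 to 290 CPM in PyMT-Cxcr2-/- TANs and at most 0.229 CPM in WT BM neutrophils. In bulk RNA, fewer cells of a type and less RNA per cell cannot be told apart.

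The efflux transporters come first. Abca1 (ENSMUSG00000015243.4, mm10 chromosome 4, 53030787 to 53159895, minus strand) loads cholesterol and phospholipid onto lipid-poor apolipoproteins and is a classical LXR target. The 250 bases before its start site are shown because Abca1 had the widest difference of the 9 genes. They are RefSeq sequence of GRCm38.p6, minus strand, chr4:53159896-53160145, with an E-box (CACGTG) and a TATA box (TATAAA) in capitals.
Abca1: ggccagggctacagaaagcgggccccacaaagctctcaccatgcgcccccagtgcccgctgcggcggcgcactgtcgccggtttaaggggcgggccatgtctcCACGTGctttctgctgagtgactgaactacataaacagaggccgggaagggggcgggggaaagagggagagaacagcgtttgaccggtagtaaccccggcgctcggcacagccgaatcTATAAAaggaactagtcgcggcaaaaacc
The E-box began at base -147 and the TATA box at base -29 from the start site. Both motifs were searched only after this sequence had been read, on both strands with no mismatch, and 7.15% and 13.62% of 32851 RefSeq promoter windows hold them. The matches are a description of letters and were not tested as binding sites.

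In PyMT TANs, Abca1 was at 623, 678, 642 and 717 CPM. Abca1 in PyMT-Cxcr2-/- TANs was at 671, 917, 640 and 450 CPM. Abca1 in WT BM neutrophils was at 1.62, 2.49, 2.0 and 1.70 CPM, which rested on 54 to 80 counts a library. Every TAN library was thus far above every marrow library, and the TAN groups overlapped. For Abca1 the log2 fold change against WT BM neutrophils was 8.50 (SE 0.191) for PyMT TANs and 8.55 (SE 0.27) for PyMT-Cxcr2-/- TANs, and -0.02 (SE 0.191) between the TAN groups. Both marrow comparisons share the same 4 control libraries, here and for all genes below. Per kilobase of exon, Abca1 went from 0.188 CPM in WT BM neutrophils, where only Cd36 was lower among the 9 genes, to 64.2 CPM in PyMT TANs, where only Apoe and Plin2 were higher.

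Abcg1 (ENSMUSG00000024030.7, chromosome 17, 31057675 to 31117988, plus strand) passes cholesterol to mature HDL particles. Its level in PyMT TANs was 253, 268, 287 and 194 CPM. Abcg1 in PyMT-Cxcr2-/- TANs was at 247, 284, 283 and 241 CPM. Abcg1 in WT BM neutrophils was at 178, 134, 116 and 119 CPM. The marrow libraries were the lowest without overlap, but the distance was small beside that of Abca1, since Abcg1 was already abundant in marrow cells. For Abcg1 the log2 fold change was 0.96 (SE 0.171) for PyMT TANs, 1.07 (SE 0.139) for PyMT-Cxcr2-/- TANs and 0.04 (SE 0.15) between them.

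Apoe (ENSMUSG00000002985.16, chromosome 7, 19696109 to 19699188, minus strand) encodes the secreted apolipoprotein that accepts cellular cholesterol. In PyMT TANs, Apoe was at 877, 2636, 2511 and 1732 CPM. Apoe in PyMT-Cxcr2-/- TANs was at 2135, 2783, 1156 and 1080 CPM. Apoe in WT BM neutrophils was at 26.6, 19.7, 13.3 and 17.8 CPM. All TAN libraries were above all marrow libraries, with a 3.17-fold range among the 8 TAN libraries and overlap of the TAN groups. For Apoe the log2 fold change was 6.74 (SE 0.41) and 6.66 (SE 0.394) against WT BM neutrophils, in PyMT and PyMT-Cxcr2-/- TANs in turn, and -0.16 (SE 0.38) between the TAN groups. Per kilobase, Apoe was the highest of the 9 genes in both TAN groups, with 907 and 837 CPM, and the fourth in WT BM neutrophils at 9.06 CPM.

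Within the TAN libraries, Apoe moved with the macrophage markers. After the group means were taken off, the log2 level of Apoe and the summed macrophage markers had a Pearson r of 0.939 over 8 libraries, which share their depth and their sort. The ratio of Apoe to that sum varied 1.88-fold, less than Apoe itself. All 10 macrophage markers had counts in every group, and the complement gene C1qa was at 156 to 399 CPM in PyMT TANs, 151 to 339 CPM in PyMT-Cxcr2-/- TANs and 0.600 to 2.05 CPM in WT BM neutrophils. Abca1 followed the same sum less closely (r = 0.604), and Plin2 (r = -0.212) and Mylip (r = -0.062) did not follow it. With the sum of 5 fibroblast markers r was 0.697 for Abca1 and 0.649 for Apoe. The part of macrophage or fibroblast RNA in the Apoe and Abca1 levels was not tested.

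**Figure D1:**
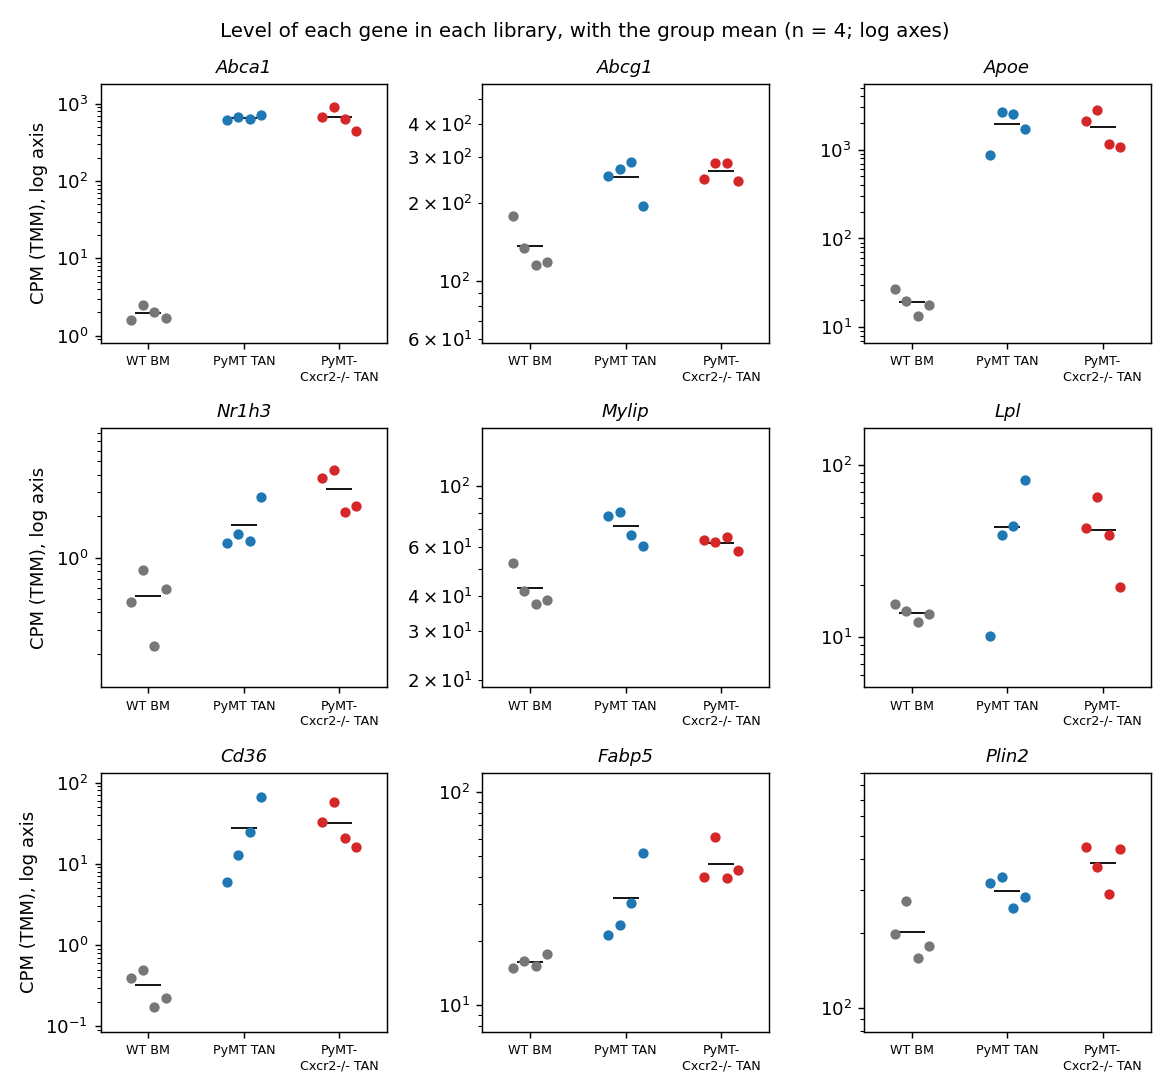
CPM of each of the 9 genes (log axes) in each library of WT BM neutrophils, PyMT TANs and PyMT-Cxcr2-/- TANs; points are libraries and bars are means of 4. Abca1, Apoe and Cd36 are separated from marrow by wide gaps, the other genes by narrow ones, and only Lpl and Plin2 of PyMT TANs overlap the marrow libraries.

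The regulators of sterol content follow. Nr1h3 (ENSMUSG00000002108.10, chromosome 2, 91184061 to 91202834, minus strand) encodes LXR alpha. In PyMT TANs, Nr1h3 was at 1.27, 1.48, 1.33 and 2.77 CPM. Nr1h3 in PyMT-Cxcr2-/- TANs was at 3.79, 4.36, 2.14 and 2.35 CPM. Nr1h3 in WT BM neutrophils was at 0.48, 0.81, 0.23 and 0.59 CPM, on 8 to 26 counts a library. The marrow libraries were the lowest, and replicate 4 of the PyMT TANs lay within the range of the PyMT-Cxcr2-/- TANs. For Nr1h3 the log2 fold change was 1.79 (SE 0.57), 2.71 (SE 0.391) and, between the TAN groups, 0.85 (SE 0.418). Nr1h3 was the lowest of the 9 genes per kilobase in both TAN groups, at 0.681 and 1.26 CPM. It shares 1.4% of its exon bases with Gm13783 on the same strand.

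Mylip (ENSMUSG00000038175.10, chromosome 13, 45389742 to 45412022, plus strand) encodes IDOL, an LXR-induced ubiquitin ligase of sterol homeostasis. In PyMT TANs, Mylip was at 77.5, 80.5, 66.6 and 60.8 CPM. Mylip in PyMT-Cxcr2-/- TANs was at 63.4, 62.5, 65.3 and 58.2 CPM. Mylip in WT BM neutrophils was at 52.6, 41.6, 37.6 and 38.7 CPM. The marrow libraries did not overlap the TANs, while the TAN groups overlapped each other. For Mylip the log2 fold change was 0.82 (SE 0.144), 0.67 (SE 0.114) and, between the TAN groups, -0.23 (SE 0.132). Mylip was also the steadiest of the 9 genes among the TAN libraries, with a 1.38-fold range.

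The genes for lipid uptake, binding and storage follow. For Cd36 and Plin2 the promoter windows held a match to the PPAR element searched (a DR1, which is a pair of AGGTCA letters 1 base apart, with at most 2 mismatches, both strands). Each site is shown in capitals with 12 bases on either side, in RefSeq sequence of GRCm38.p6 on the strand of the gene. The Cd36 site is at chr5:17835947-17835959 and begins at base -63 from a RefSeq start site that lies inside the gene span given for Cd36 below, and the Plin2 site is at chr4:86670272-86670284 and begins at base -225.
Cd36: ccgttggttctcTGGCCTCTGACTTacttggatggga
Plin2: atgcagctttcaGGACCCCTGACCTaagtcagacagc
Both matches lay on the strand opposite to the gene. RefSeq windows of 250 bases before to 50 after a start site were present for 6 of the 9 genes, 9 windows in all, of which 2 held this element, against 3.86% of all 32851 windows. The LXR element searched (a DR4, the same pair 4 bases apart, at most 2 mismatches) was in 0 of these 9 windows and 3.02% of all windows, and the sterol regulatory element (TCACNCCAC, no mismatch) in 0 and 1.24%. A window without these letters says nothing of sites elsewhere, or of sites with more than 2 mismatches. The Abca1 bases shown above hold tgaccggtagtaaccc, a stretch like the DR4 on the opposite strand. It has more than 2 mismatches, so it was not counted, and it was not tested as a binding site.

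Lpl (ENSMUSG00000015568.16, chromosome 8, 68880491 to 68907448, plus strand) encodes lipoprotein lipase, which frees fatty acids from circulating triglyceride. In PyMT TANs, Lpl was at 10.2, 39.0, 44.3 and 82.5 CPM. Lpl in PyMT-Cxcr2-/- TANs was at 43.3, 65.8, 39.3 and 19.4 CPM. Lpl in WT BM neutrophils was at 15.5, 14.2, 12.1 and 13.6 CPM. Replicate 1 of the PyMT TANs was below every marrow library, and the other 7 TAN libraries were above all of them. For Lpl the log2 fold change was 1.76 (SE 0.464), 1.72 (SE 0.296) and, between the TAN groups, -0.11 (SE 0.547).

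Cd36 (ENSMUSG00000002944.15, chromosome 5, 17781690 to 17888801, minus strand) encodes a scavenger receptor for oxidized LDL and long-chain fatty acids. In PyMT TANs, Cd36 was at 5.93, 13, 24.9 and 66.1 CPM. Cd36 in PyMT-Cxcr2-/- TANs was at 32.7, 57.5, 20.6 and 16 CPM. Cd36 in WT BM neutrophils was at 0.39, 0.50, 0.17 and 0.22 CPM, on 6 to 16 counts a library. All TAN libraries were above marrow, and Cd36 had the widest range of the 9 genes among them, 11.2-fold. For Cd36 the log2 fold change was 6.52 (SE 0.793), 6.76 (SE 0.516) and, between the TAN groups, 0.17 (SE 0.704).

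Fabp5 (ENSMUSG00000027533.10, chromosome 3, 10012548 to 10016607, plus strand) encodes a cytosolic fatty acid carrier, and its count is uncertain because processed copies of the gene can share its reads. In PyMT TANs, Fabp5 was at 21.2, 23.9, 30.1 and 51.7 CPM. Fabp5 in PyMT-Cxcr2-/- TANs was at 39.8, 61.7, 39.7 and 43.2 CPM. Fabp5 in WT BM neutrophils was at 15, 16.2, 15.2 and 17.4 CPM. The marrow libraries were tight and the lowest, and the TAN groups overlapped through replicate 4 of the PyMT TANs. For Fabp5 the log2 fold change was 1.08 (SE 0.263), 1.65 (SE 0.15) and, between the TAN groups, 0.50 (SE 0.27).

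Lpl, Cd36 and Fabp5 varied together among the TAN libraries, with the group means taken off: r was 0.931 for Lpl with Cd36, 0.92 for Cd36 with Fabp5 and 0.77 for Lpl with Fabp5 over 8 libraries. The summed epithelium markers varied with them as well, with r = 0.928 for Cd36, 0.852 for Fabp5 and 0.776 for Lpl. Nr1h3 had r = 0.754 and Mylip r = -0.799 with the epithelium sum. The sum of 5 fibroblast markers had r = 0.839 for Lpl, 0.734 for Cd36 and 0.485 for Fabp5, and the macrophage sum 0.749, 0.605 and 0.288. That fibroblast sum was 0.807 to 12.9 CPM (median 5.70) in PyMT TANs, 1.79 to 34.2 CPM (median 28.4) with Cxcr2 lost and 0.168 to 1.77 CPM in marrow. The epithelium sum was 39.4, 51.7, 271 and 426 CPM in PyMT TAN replicates 1 to 4, and 214, 290, 70.7 and 103 CPM in the PyMT-Cxcr2-/- TANs. The ratio of Cd36 to it varied 3.17-fold. Of the 9 epithelium markers, 6 had no count in any marrow library, whereas each of the 9 had counts in both TAN groups. The neutrophil sum moved against several of the 9 genes, with r = -0.928 for Lpl, -0.805 for Abca1, -0.795 for Cd36, -0.791 for Apoe, -0.698 for Nr1h3 and -0.57 for Fabp5. S100a8, S100a9 and Csf3r made up most of that sum. Their means were 3497, 2623 and 3737 CPM in PyMT TANs, and 7065, 5518 and 4827 CPM in PyMT-Cxcr2-/- TANs. Adipocyte markers were near 0: Cidec was at most 1.48 CPM, Adipoq at most 0.817 CPM, Cfd at most 0.665 CPM, Plin1 at most 0.0831 CPM and Lep at most 0.0383 CPM in any library, and Retn at 5.77 to 13.5 CPM made up most of the summed level of 6 markers, 5.94 to 13.7 CPM. The part of epithelial, fibroblast or macrophage RNA in Cd36, Fabp5, Lpl and Nr1h3 was not tested.

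**Figure D2:**
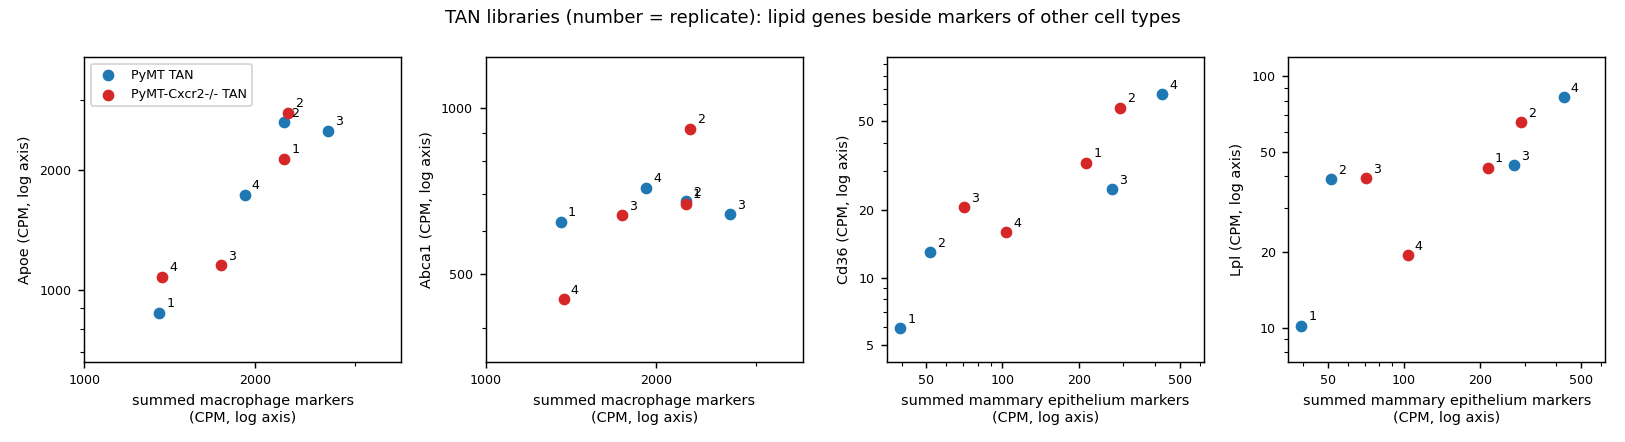
Levels of Apoe and Abca1 beside the summed macrophage markers, and of Cd36 and Lpl beside the summed mammary epithelium markers, in the 8 TAN libraries (CPM, log axes; numbers are replicates). Apoe and Cd36 follow the sums closely (r = 0.939 and 0.928 with group means taken off), and Abca1 and Lpl less so (0.604 and 0.776).

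Plin2 (ENSMUSG00000028494.12, chromosome 4, 86648386 to 86670060, minus strand) encodes perilipin 2, which coats lipid droplets. In PyMT TANs, Plin2 was at 322, 338, 253 and 282 CPM. Plin2 in PyMT-Cxcr2-/- TANs was at 450, 373, 289 and 440 CPM. Plin2 in WT BM neutrophils was at 199, 271, 159 and 178 CPM. Replicate 2 of the marrow libraries lay above the lowest PyMT TAN library, and all PyMT-Cxcr2-/- TANs were above marrow. For Plin2 the log2 fold change was 0.65 (SE 0.167), 1.06 (SE 0.172) and, between the TAN groups, 0.34 (SE 0.163). Per kilobase, Plin2 was the highest of the 9 genes in WT BM neutrophils, at 57.5 CPM, and the second in both TAN groups.

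All 9 genes passed the filter on low counts and were past both limits (adjusted p under 0.05 and a change of at least 1.5-fold) as higher in each TAN group than in marrow. The genes had been chosen with these levels in view, so the count describes the choice and nothing is read from it. Over 18 alternative fits of the PyMT TAN comparison, Plin2 was past both limits in 9, Nr1h3 in 11 and Lpl in 17. Plin2 was no longer past the fold limit without PyMT TAN replicate 2 or WT BM neutrophil replicate 3 or 4, at a log2 fold change of 0.50 to 0.58. Nr1h3 was no longer past the adjusted limit without PyMT TAN replicate 4 or WT BM neutrophil replicate 1, 3 or 4. Among all genes tested, 30.1% were called higher and 23.2% lower in PyMT TANs, and 34.4% higher and 25.1% lower when Cxcr2 was lost. In CPM, 7 of the 9 genes did not overlap marrow in PyMT TANs and all 9 in PyMT-Cxcr2-/- TANs, where 28.4% and 32.5% of all genes were higher and 29.7% and 33.3% lower without overlap. Between the TAN groups 0 of the 9 genes were called by edgeR and all 9 overlapped, where 1.38% of all genes were called higher and 0.596% lower in PyMT-Cxcr2-/- TANs. These shares stand for 255 and 110 genes, which became 10 and 13 without PyMT TAN replicate 2. The median log2 fold change of the 9 genes was 1.76, 1.72 and 0.04 in the 3 comparisons, beside 0.09, 0.09 and -0.07 over all genes tested.

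**Figure D3:**
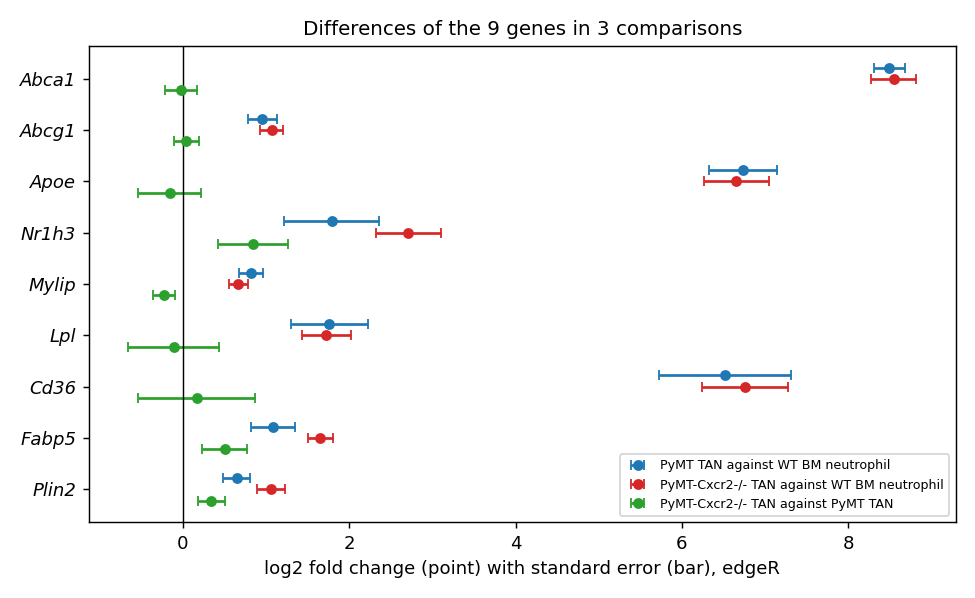
Log2 fold changes (points) with standard errors (bars) of the 9 genes in the 3 comparisons. Abca1, Apoe and Cd36 lie above 6 against marrow in both TAN groups, and the values between the TAN groups lie between -0.23 and 0.85.

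Per kilobase the order of levels in PyMT TANs was Apoe, Plin2, Abca1, Abcg1, Mylip, Fabp5, Cd36, Lpl and Nr1h3. Neighbours from Fabp5 downward overlapped there. The PyMT-Cxcr2-/- TANs had the same order, with overlap of Plin2 with Abca1, Fabp5 with Cd36 and Cd36 with Lpl. In marrow the order was Plin2, Abcg1, Mylip, Apoe, Fabp5, Lpl, Nr1h3, Abca1 and Cd36, with overlap of Abcg1 with Mylip, Mylip with Apoe and Nr1h3 with Abca1.

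The genes whose levels were most like those of the 9 were sought among 7626 genes by Pearson r over the 8 TAN libraries, with the group means taken off. For Apoe they were Nectin4 (0.995) and Sash1 (0.99), for Lpl Pdgfc (0.991) and Mertk (0.986), and for Cd36 Maco1 (0.987) and Papss1 (0.987). Mertk is one of the 10 macrophage markers. Fabp5 was most like Ctsl (0.981) and Atp6v0d2 (0.981), both of the lysosome, and Abca1 most like Ttll5 (0.972) and Gtf2h2 (0.959). For Abcg1 they were Mtch1 (0.969) and Khsrp (0.968), for Mylip Kmt5c (0.98) and Faap100 (0.971), and for Plin2 Pgls (0.956) and Emg1 (0.951). Nr1h3 was below the level limit of this search.

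The wider lipid network was read from 8 lists with 102 further genes, tested with edgeR's quasi-likelihood test and Benjamini-Hochberg adjustment over all genes. In PyMT TANs 93 of them could be tested, and 40 rose, 18 fell and 35 did not pass against WT BM neutrophils. That is 43.0% higher and 19.4% lower, beside 30.1% and 23.2% of all genes. In PyMT-Cxcr2-/- TANs 95 could be tested, and 46 rose, 13 fell and 36 did not pass, or 48.4% higher and 13.7% lower beside 34.4% and 25.1%. The median log2 fold change of the lists was 0.45 and 0.65. These counts hold genes that entered the test through their TAN levels, and the shares of all genes hold such genes too. Among them were the tested PPAR and PGC-1 regulators except Ppard, a list with 3 of 3 and 5 of 5 called higher. The distance between the shares is therefore not read as a result. The macrophage and epithelium sums given above rose with these genes in both comparisons, and their part was not tested.

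**Figure D4:**
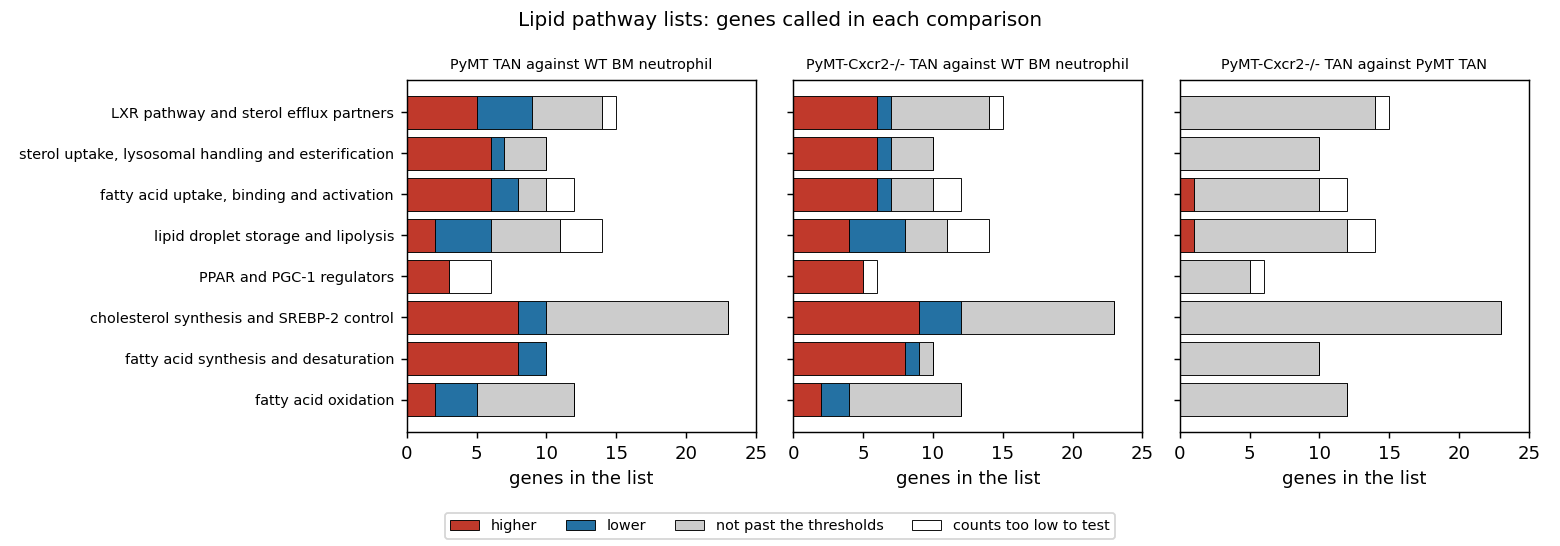
Number of genes of each of the 8 lipid lists that were called higher, called lower, not past the limits, or too low to test, in the 3 comparisons. Fatty acid synthesis has 8 of 10 genes higher in both TAN groups against marrow. Among all genes 30.1% and 34.4% are higher in PyMT and PyMT-Cxcr2-/- TANs. Only 2 genes of all lists are called between the TAN groups.

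Partners of LXR and sterol efflux moved both ways. In PyMT TANs 5 of 14 tested rose and 4 fell, and in PyMT-Cxcr2-/- TANs 6 rose and 1 fell. Pltp, a phospholipid transfer protein of HDL, was at 51.4 ± 47.2 CPM in PyMT TANs against 0.508 ± 0.145 CPM in marrow (SD, n = 4), a log2 fold change of 6.76 (edgeR adjusted p = 4.26e-05). It shares 19.3% of its exon bases with Ctsa on the opposite strand. Cyp27a1, which makes the LXR ligand 27-hydroxycholesterol, was at 14.4 ± 8.54 CPM against 0.335 ± 0.225 CPM, a log2 fold change of 5.51. At that marrow level Cyp27a1 entered the test through its TAN levels. Its call in each TAN group, counted among the genes that rose, is therefore not read. Abca7, a lipid transporter related to Abca1, went the other way, from 694 ± 101 CPM in marrow to 176 ± 45.0 CPM in PyMT TANs (log2 fold change -1.90, edgeR adjusted p = 1.06e-05) and 296 ± 69.6 CPM in PyMT-Cxcr2-/- TANs (-1.11, edgeR adjusted p = 3.31e-05). Smpdl3a, a phosphodiesterase induced by LXR, fell in PyMT TANs by 1.0 on the log2 scale (edgeR adjusted p = 0.000242), and its log2 fold change in PyMT-Cxcr2-/- TANs was -0.45, short of the fold limit.

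Genes for sterol uptake and lysosomal handling gave 6 of 10 higher and 1 lower in both TAN groups. Lrp1, an endocytic receptor for Apoe-bearing particles, reached 553 ± 175 and 617 ± 222 CPM in PyMT and PyMT-Cxcr2-/- TANs, against 10.7 ± 2.56 CPM in marrow (log2 fold changes of 5.79 and 5.98, edgeR adjusted p = 8.3e-08 and 2.26e-08). Msr1, the scavenger receptor of class A, had log2 fold changes of 5.33 and 5.61 (edgeR adjusted p = 2.51e-06 and 8.18e-08).

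For fatty acid uptake and activation 6 of 10 rose and 2 fell in PyMT TANs, and 6 rose and 1 fell in PyMT-Cxcr2-/- TANs. Slc27a1, a fatty acid transport protein, had log2 fold changes of 5.16 and 5.71 (edgeR adjusted p = 1.28e-06 and 1.04e-07). Angptl4, a secreted inhibitor of lipoprotein lipase, had 5.03 and 5.28, from 0.119 ± 0.0535 CPM in marrow. That marrow level was close to the CPM of 3 counts, and Angptl4 entered the test through its TAN levels. Its call in each TAN group, counted among the genes that rose, is therefore not read. Acsl1, which couples fatty acids to coenzyme A, fell from 405 ± 21 CPM to 84.9 ± 14.4 CPM and 102 ± 17.6 CPM (log2 fold changes of -2.18 and -1.87, edgeR adjusted p = 2.96e-07 and 3.14e-08).

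In the list for lipid droplets and lipolysis 2 of 11 rose and 4 fell in PyMT TANs, and 4 rose and 4 fell in PyMT-Cxcr2-/- TANs. Hilpda, an inhibitor of the lipase ATGL, reached 90.0 ± 51.9 and 35.3 ± 18.5 CPM in PyMT and PyMT-Cxcr2-/- TANs, against 1.10 ± 0.116 CPM (log2 fold changes of 6.42 and 5.12, edgeR adjusted p = 9.22e-07 and 1.32e-07). G0s2, another ATGL inhibitor, rose by 0.69 and 1.35 in PyMT and PyMT-Cxcr2-/- TANs (edgeR adjusted p = 0.00355 and 4.79e-07). Abhd5, the activator of ATGL, fell by 1.44 and by 1.14 on the log2 scale (edgeR adjusted p = 8.13e-07 and 5.68e-06), and 16% of its exon bases overlap A730085K08Rik on the opposite strand. Lipe, the hormone-sensitive lipase, and Plin3, a droplet coat protein, were the other genes that fell in both TAN groups beside Mgll.

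Of the genes for fatty acid synthesis and desaturation 8 of 10 rose in both TAN groups. They were Acaca, Fasn, Scd1, Scd2, Elovl5, Elovl6, Fads1 and Fads2. That is 80% in each, beside 30.1% and 34.4% of all genes in PyMT and PyMT-Cxcr2-/- TANs. Elovl6 and Fads2 had counts too low for every filter tried, and were tested in 17 of 18 alternative fits of the PyMT TAN comparison. As for the lists together, the distance between these shares is not read as a result. Scd1, a stearoyl-CoA desaturase, reached 54.5 ± 33.9 and 68.1 ± 54.9 CPM in PyMT and PyMT-Cxcr2-/- TANs, against 1.14 ± 0.433 CPM in marrow (log2 fold changes of 5.68 and 6.03, edgeR adjusted p = 4.2e-05 and 0.000168). Fads1, the delta-5 desaturase, had 5.34 and 5.31 (edgeR adjusted p = 5.86e-07 and 8.31e-08). Elovl1, an elongase of very long chains, fell by 1.21 and by 1.03 on the log2 scale (edgeR adjusted p = 1.92e-05 and 8.13e-06). Acly, which makes cytosolic acetyl-CoA, fell by 0.86 in PyMT TANs (edgeR adjusted p = 0.000645), and its log2 fold change in PyMT-Cxcr2-/- TANs was -0.50, short of the fold limit.

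Of the 6 PPAR and PGC-1 regulators, only Ppard had more than 8 counts in a marrow library. The others entered the test, where they did, through their TAN levels, so their number called is not read (Pdk4 had 0 counts in every marrow library). Ppard rose, to 88.5 ± 24.7 CPM and 104 ± 9.89 CPM against 48.9 ± 4.78 CPM (log2 fold changes of 0.93 and 1.21, edgeR adjusted p = 0.000907 and 3.77e-07). Pparg, named here after its values were seen, was at 0.510, 3.64, 3.69 and 2.81 CPM in PyMT TANs and at most 0.224 CPM in marrow. The cholesterol synthesis list was mostly not past the limits: of 23 genes 8 rose and 2 fell in PyMT TANs, and 9 rose and 3 fell in PyMT-Cxcr2-/- TANs. Dhcr7, the last enzyme of one branch of the pathway, rose by 2.21 and 2.34 (edgeR adjusted p = 0.000229 and 8.62e-06), from 1.81 ± 0.430 CPM. Msmo1, a sterol demethylase, fell by 2.23 and by 1.85 (edgeR adjusted p = 2.4e-06 and 9e-09). Srebf2, the gene of SREBP-2 itself, fell by 0.74 and by 0.75 in PyMT and PyMT-Cxcr2-/- TANs (edgeR adjusted p = 0.00268 and 0.000226).

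Fatty acid oxidation gave 2 of 12 higher and 3 lower in PyMT TANs, and 2 higher and 2 lower in PyMT-Cxcr2-/- TANs. Slc25a20, the mitochondrial carnitine carrier, rose by 0.93 and 1.23 on the log2 scale (edgeR adjusted p = 5.98e-05 and 6.61e-07). Hadh, a dehydrogenase of the oxidation cycle, rose by 4.09 and 3.69 (edgeR adjusted p = 0.000174 and 4.87e-06). Cpt2, the inner carnitine palmitoyltransferase, fell by 1.43 and by 1.32 (edgeR adjusted p = 2.42e-05 and 1.94e-06).

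The direct comparison of the TAN groups asks how neutrophils of tumors with and without Cxcr2 differed. Of 96 list genes tested 2 rose in PyMT-Cxcr2-/- TANs, 0 fell and 94 did not pass, which is 2.08% higher beside 1.38% of all genes. At an unadjusted p under 0.05 in edgeR 9 were higher and 4 lower, and DESeq2 called 7 higher and 0 lower. Slc27a4, a fatty acid transport protein with acyl-CoA synthetase activity, was at 172, 154, 170 and 134 CPM in PyMT TANs. Slc27a4 in PyMT-Cxcr2-/- TANs was at 284, 366, 428 and 461 CPM, above every PyMT TAN library. For Slc27a4 the log2 fold change was 1.25 (SE 0.169, edgeR adjusted p = 0.00971). In marrow Slc27a4 was at 551 ± 47.0 CPM (SD, n = 4), so PyMT-Cxcr2-/- TANs lay between PyMT TANs and marrow.

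Mgll, monoacylglycerol lipase, was at 19.5, 15.1, 16.1 and 11 CPM in PyMT TANs. Mgll in PyMT-Cxcr2-/- TANs was at 28.5, 26.3, 34.8 and 47.9 CPM, again without overlap. For Mgll the log2 fold change was 1.12 (SE 0.229, edgeR adjusted p = 0.0303). Marrow had 138 ± 15.9 CPM of Mgll. The summed neutrophil markers were in the same order, lowest in PyMT TANs and highest in marrow, and their part in both differences was not tested. Without PyMT TAN replicate 2 both calls were lost (edgeR adjusted p = 0.0502 for Slc27a4 and 0.104 for Mgll), with log2 fold changes of 1.25 and 1.12. The call of Mgll was lost as well without PyMT TAN replicate 3 or 4 or PyMT-Cxcr2-/- TAN replicate 3 or 4 (edgeR adjusted p from 0.0571 to 0.114).

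Further genes, named after their values were seen, were separated between the TAN groups without passing the adjusted limit. Dgat1, which makes triglyceride, went from 310 ± 78.5 CPM among PyMT TANs to 552 ± 100 CPM with Cxcr2 lost (log2 fold change 0.80, edgeR adjusted p = 0.0648). Dgat2, the other such acyltransferase, had 0.67 (edgeR adjusted p = 0.076), and Cpt1a, the outer carnitine palmitoyltransferase, 0.74 (edgeR adjusted p = 0.0794). Abca7 had 0.72 (edgeR adjusted p = 0.128). In all, 10 of the 96 genes did not overlap as higher and 2 as lower in PyMT-Cxcr2-/- TANs, where 6.89% and 5.05% of all genes did so.

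**Figure D5:**
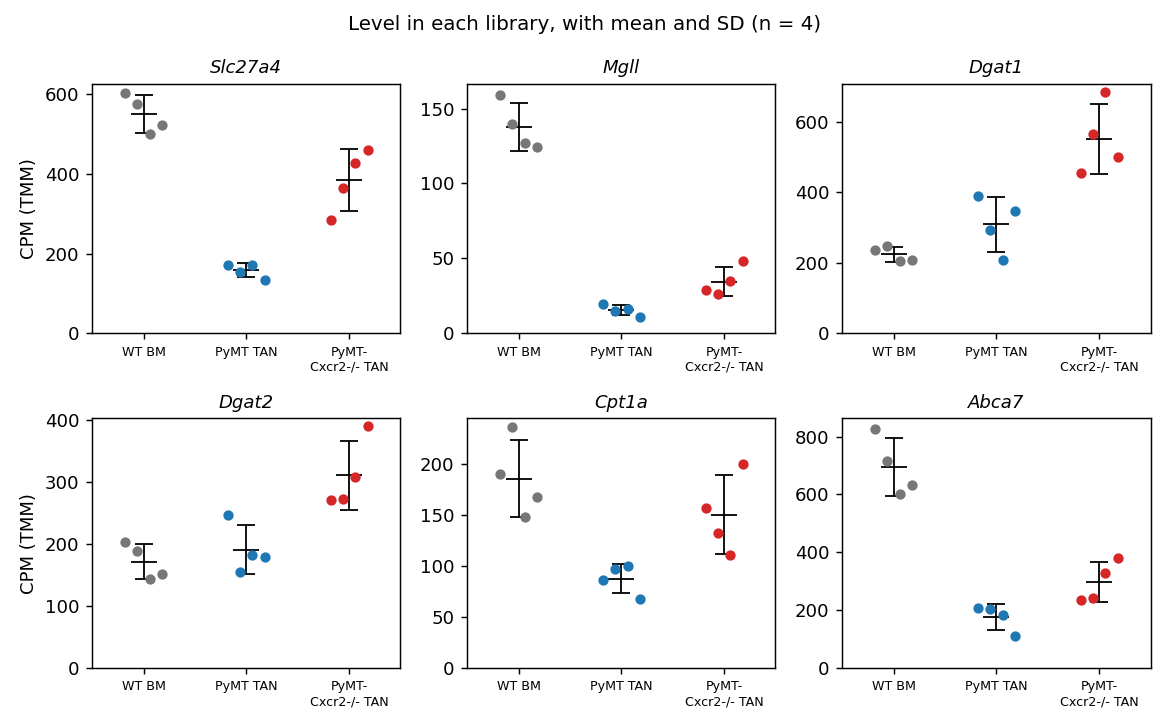
CPM (linear axes) of Slc27a4, Mgll, Dgat1, Dgat2, Cpt1a and Abca7 in each library, with mean and SD of 4. The TAN groups do not overlap in any of these genes, and Slc27a4 and Mgll pass the adjusted limit between them. For Slc27a4, Mgll, Cpt1a and Abca7 the mean of the PyMT-Cxcr2-/- TANs lies between those of PyMT TANs and marrow.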

How the data were processed

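Neutrophil RNA from 12 libraries in 3 groups of 4 was measured. The authors depleted rRNA, made directional libraries, trimmed and aligned the reads to mm10 and counted them per gene with HTSeq; the deposited values are raw counts, and 32.0 to 52.5% of counted reads fell in no gene and were left out. Tool versions, annotation release and strand setting are not given in the sources used here. Gene names were matched by ID in GENCODE annotation of the same build for 55154 of 55335 genes. The study gives 4 animals per group for the TAN libraries; nothing says so for the marrow libraries, whose spread may be technical. Pairs of replicates differed by 22.6 to 134 times the sampling noise (chi-square per degree of freedom).

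Each comparison was fitted in R 4.3.3 with edgeR 4.0.16 (TMM, filterByExpr, robust quasi-likelihood test), and genes were called at an adjusted p under 0.05 and a change of at least 1.5-fold. A fit to simulated counts of PyMT-Cxcr2-/- TANs against PyMT TANs (18463 genes) recovered 23 of 200 genes changed by a log2 value of 1 and 144 of 200 changed by 3. DESeq2 1.42.0, other scalings, filters, designs and left-out libraries served as alternatives. The 9 genes, the lists and the tests were chosen with earlier results of these data known. Genes were named as follows: the 9 genes, per list and comparison up to 2 called higher and 2 called lower of largest change with an average log2 CPM of at least 1, the marker genes, and the 2 genes most like each of the 9 (average log2 CPM of at least 3). 1 gene that this rule names in the list for sterol uptake is not reported here.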

Additional observations from a re-analysis of the deposited data

Results flagged for a closer look

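Among 123 groups of 4 libraries checked over the named genes, 3 held a library far from the others, where chance would give about 6.15. Nr1h3 was at 2.77 CPM in PyMT TAN replicate 4, with the nearest library at 1.48 CPM. Fabp5 was at 61.7 CPM in PyMT-Cxcr2-/- TAN replicate 2, with the nearest at 43.2 CPM. Sqle, an enzyme of cholesterol synthesis, was at 4.06 CPM in WT BM neutrophil replicate 3, with the nearest at 2.52 CPM. Slc27a4 and Mgll differed between the TAN groups in a direct test, with log2 fold changes of 1.25 and 1.12.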

How the results depend on the processing

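Against WT BM neutrophils, the 9 genes kept their direction in all 324 values from the alternatives, and 310 of these moved by less than the spread between replicates, but not every call held. Besides Plin2, Nr1h3 and Lpl as given above, Mylip lost its call in PyMT-Cxcr2-/- TANs in 1 of 18 alternative fits, and a limit of 2-fold ended the calls of Abcg1, Mylip and Plin2 in PyMT TANs and of Mylip in PyMT-Cxcr2-/- TANs. Between the TAN groups 142 of 162 values had the same direction. With library totals alone, which moved the median of all genes from 0.09 to 0.53 in PyMT TANs, the log2 fold change in PyMT TANs was 8.94 for Abca1, 1.41 for Abcg1, 1.27 for Mylip, 1.09 for Plin2 and 1.53 for Fabp5. In PyMT-Cxcr2-/- TANs that of Mylip was 0.86, and between the TAN groups -0.41. Offsets for GC content and gene length gave 8.11 for Abca1 and 0.68 for Abcg1 in PyMT TANs, and 8.17 and 0.82 in PyMT-Cxcr2-/- TANs. The lists had 18 genes lower in PyMT TANs, 11 at a minimum of 2-fold and 10 with library totals; in PyMT-Cxcr2-/- TANs 13, 20 with the adjusted p alone and 7 at 2-fold. Library totals moved the share of called genes that were higher from 56.4% to 72.8% in PyMT TANs, and from 69.9% to 34.5% between the TAN groups.

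Between the TAN groups, the 2 list genes higher became 7 with no filter, 7 with all 12 libraries in 1 fit, 7 with DESeq2, 1 with the offsets, and 0 to 4 when single libraries were left out: 4 without PyMT TAN replicate 1, 0 without PyMT TAN replicate 2, and 1 without PyMT TAN replicates 3 or 4 or PyMT-Cxcr2-/- TAN replicates 3 or 4. Over all genes, 255 were higher and 110 lower, against 684 and 300 with DESeq2, 579 and 307 with all 12 libraries in 1 fit, 471 and 123 with no filter, 149 and 64 with the offsets, 4 and 9 with the block, and 10 and 13 without PyMT TAN replicate 2, 58 and 25 without PyMT-Cxcr2-/- TAN replicate 3, 68 and 28 without PyMT-Cxcr2-/- TAN replicate 4 and 427 and 86 without PyMT TAN replicate 1. Slc27a4 was called in 15 of 18 alternative fits and Mgll in 10 of 18, with edgeR or DESeq2 adjusted p from 9.78e-09 to 0.145 and from 0.000351 to 0.213. The cause was not tested. With the group means taken off, same-numbered TAN libraries had correlations of -0.153, -0.093, -0.0684 and -0.208. Differently numbered TAN libraries had -0.338 to 0.318. The labels do not say, and these values cannot decide, whether libraries are paired by replicate number. A fit blocked on that number left 0 list genes higher between the TAN groups, also with the offsets added, and Nr1h3 in PyMT TANs short of the adjusted limit; block and offsets together gave 8.12 for Abca1 and 0.68 for Abcg1 in PyMT TANs, and 8.15 and 0.82 in PyMT-Cxcr2-/- TANs. Counts of 6 to 16 for Cd36 and 8 to 26 for Nr1h3 in marrow limit those fold changes.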
